A study of Mus musculus with 20 samples.

Results

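The genes described are 6 of the 25219 in the deposited table: Itih4, Impdh1, Plac8, 4930506M07Rik, Zcchc2 and 0610009L18Rik. They were selected on measured values, the log2 knockout effects in inguinal white fat (iWAT) and brown fat (BAT), which differed after α4 was deleted in adipocytes, so those effects and their difference are given as a description, without a test. Male Control and Ai-α4KO mice supplied the RNA of both depots, with 5 libraries in each of the 4 groups. Ai-α4KO mice carried floxed alleles of Igbp1, the gene for the phosphatase regulator α4, and Adiponectin-CreERT2, which recombines them in cells that express adiponectin. Control mice carried the floxed alleles without Cre (their labels call them wild type). Every group received tamoxifen, in 5 injections over 6 days starting at 2 months of age, and tissue was taken 1 week after recombination. The labels do not tie same-numbered iWAT and BAT libraries to the same mouse, and p-values measure the spread between these libraries.

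White fat stores triglyceride in adipocytes with few mitochondria, whereas brown adipocytes burn fuel for heat through Ucp1. When adipocytes are damaged, monocytes and macrophages enter the tissue, and the RNA of a whole depot then mixes adipocyte and immune cell transcripts. In such bulk RNA, fewer cells of a type and less RNA per cell cannot be told apart.

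The 6 genes have unlike roles. Itih4 encodes a secreted heavy chain of the inter-alpha-trypsin inhibitor family, a plasma protein made mainly by liver. Impdh1 encodes an inosine monophosphate dehydrogenase, which carries out the committed step of guanine nucleotide synthesis. Plac8 encodes a small cysteine-rich protein found in myeloid cells and also known as a regulator of brown fat differentiation. 4930506M07Rik is an older symbol of Shtn1, which encodes shootin-1, a protein that links the adhesion molecule L1cam to actin in growing axons. Zcchc2 encodes a protein with a CCHC zinc finger. 0610009L18Rik is a long non-coding RNA.

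In mm10 coordinates, which are those of GRCm38, Itih4 lies on chromosome 14 from 30886476 to 30901986 on the plus strand. Impdh1 lies on chromosome 6 from 29200437 to 29216364 and Plac8 on chromosome 5 from 100553733 to 100572205, both on the minus strand. 4930506M07Rik covers chromosome 19 from 58973358 to 59076069 on the minus strand. Zcchc2 lies on chromosome 1 from 105990406 to 106034079 and 0610009L18Rik on chromosome 11 from 120348678 to 120351190, both on the plus strand.

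The promoter is the stretch around a gene's start where transcription factors and the polymerase bind. RefSeq promoter windows (GRCm38.p6, 250 bases before to 50 after the start) matched 5 of the 6 genes, with 7 windows. The 3 stretches printed here differ in base composition and in the letters they hold. Those of Itih4 and Impdh1 run from 250 bases before the start through its first 10 bases. That of 0610009L18Rik is the whole 193 bases between its start and that of Actg1, both in the deposited coordinates. Actg1, the cytoplasmic γ-actin gene, is read the other way. Capitals mark matches on either strand to the 7 motifs searched. These were TATAAA for the box that positions the polymerase, GGGCGG for Sp1 family factors, CACGTG for basic helix-loop-helix factors, TGACTCA for AP-1, TGACGTCA for cAMP-responsive factors, TTGCNNAA for C/EBP factors and TTCNNNGAA for STAT factors.
Itih4, chr14:30886226-30886485, plus strand: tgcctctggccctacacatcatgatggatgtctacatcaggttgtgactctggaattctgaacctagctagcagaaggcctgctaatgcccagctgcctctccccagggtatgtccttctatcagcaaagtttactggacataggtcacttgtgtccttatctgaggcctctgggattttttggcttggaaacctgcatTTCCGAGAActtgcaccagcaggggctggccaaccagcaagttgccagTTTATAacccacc
Impdh1, chr6:29216355-29216614, minus strand: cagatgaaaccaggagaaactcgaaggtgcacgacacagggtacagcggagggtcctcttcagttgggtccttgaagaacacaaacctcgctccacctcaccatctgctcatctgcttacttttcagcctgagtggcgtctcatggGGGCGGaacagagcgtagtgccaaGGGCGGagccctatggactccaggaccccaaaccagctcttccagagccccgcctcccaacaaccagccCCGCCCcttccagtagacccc
0610009L18Rik, chr11:120348485-120348677, plus strand: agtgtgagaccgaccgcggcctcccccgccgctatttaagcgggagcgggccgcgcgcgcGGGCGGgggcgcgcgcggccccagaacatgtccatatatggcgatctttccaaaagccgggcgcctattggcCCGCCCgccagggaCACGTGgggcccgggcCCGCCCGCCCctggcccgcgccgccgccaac

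Itih4 had 1 match to TATAAA, which 13.6% of the 32851 RefSeq promoter windows hold, and 1 to TTCNNNGAA, which 8.30% hold. Its window had the fewest CpG pairs of the 7, with an observed to expected ratio of 0.0976 (median of all windows 0.384). The window of 0610009L18Rik held 6 matches to GGGCGG, 2 of which overlap, and 1 to CACGTG, at a CpG ratio of 1.17. GGGCGG occurs in 35.7% of all windows and CACGTG in 7.15%. The window at the annotated start of Impdh1 held 4 matches to GGGCGG and that of Zcchc2 held 2. None of the 7 motifs was found in the window at the annotated start of Plac8, and an inner Plac8 window held 1 match to TTGCNNAA. A match here is a run of letters, not a measured site.

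Levels are CPM, counts scaled by the TMM-adjusted size of each library. Library totals ran from 24023371 to 50384446 counts. Igbp1 was lower in Ai-α4KO than in Control, by log2 fold changes of -2.65 in iWAT (standard error 0.094, edgeR adjusted p = 4.99e-08) and -2.5 in BAT (standard error 0.17, edgeR adjusted p = 2.2e-07), and the difference between these was 0.17 (adjusted p = 0.562). Summed markers of 9 adipocyte genes had medians of 40800 and 29700 CPM in Control iWAT and BAT and of 16300 and 17700 in the Ai-α4KO groups. Markers of skeletal muscle summed to between 12800 and 41900 CPM in Ai-α4KO BAT and between 892 and 9190 in Control BAT, and in iWAT the highest sums were 6840 in Control library 4 and 5440 in Ai-α4KO library 1. B cell markers summed to 453 and 180 CPM in Control iWAT libraries 1 and 4, and to at most 12.2 in every other iWAT library.

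Itih4 was low in 3 groups and abundant in 1. Libraries 1 to 5 of Control iWAT read 1.44, 3.11, 3.31, 12 and 7.62 CPM. Those of Ai-α4KO iWAT read 4.77, 11, 1.68, 5.46 and 1.76 CPM, so the 2 iWAT groups overlapped. Control BAT read 1.64, 0.900, 2.18, 2.33 and 2.19 CPM, while Ai-α4KO BAT read 178, 271, 242, 226 and 283 CPM.

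Every Ai-α4KO BAT library of Itih4 thus lay above every other library of the series. The log2 fold change was 6.98 in BAT (standard error 0.28) and -0.16 in iWAT (standard error 0.63), a difference between depots of 7.17 (standard error 0.77), the 7th highest of 15230 genes. Without 1 library that difference ran from 6.66 (without Control iWAT 4) to 7.79 (without Ai-α4KO iWAT 2). The difference was 6.52 with the log2 sum of the skeletal muscle markers as a covariate, a fit chosen after seeing the data. Muscle sums of Control and Ai-α4KO did not overlap in BAT, so that fit cannot tell muscle RNA from genotype there. Itih4 is a liver product, and markers of hepatocytes summed to between 0.909 and 11.8 CPM in the Ai-α4KO BAT libraries and between 1.02 and 1.75 CPM in Control BAT, with albumin (Alb) at 3.45 ± 3.52 CPM in Ai-α4KO BAT (SD, n = 5). Their part in the level of Itih4 was not tested. In Control iWAT, libraries 4 and 5, which had the most Itih4, also had the highest hepatocyte sums of that group, 139 and 72.2 CPM. In Ai-α4KO iWAT, library 2 had the most Itih4 and a hepatocyte sum of 4.56 CPM, in a group range of 4.28 to 10.8. In Ai-α4KO BAT, library 5 had the most Itih4 and the highest hepatocyte sum, 11.8 CPM. Library 2 of that group, with 271 CPM of Itih4, had the lowest hepatocyte sum, 0.909 CPM.

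Impdh1 was far higher in brown than in white fat of Control mice, and its level in BAT of Ai-α4KO mice was near that in iWAT. Control BAT libraries 1 to 5 read 400, 320, 403, 614 and 574 CPM. Ai-α4KO BAT libraries read 42, 34.8, 22.9, 21.3 and 28.3 CPM, all below Control. In iWAT, Control libraries read 45.7, 36, 39, 36.9 and 34.5 CPM and Ai-α4KO libraries 32.5, 18.4, 18.6, 18.8 and 18.3 CPM, again all below Control but closer to it.

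The log2 fold change of Impdh1 was -3.99 in BAT (standard error 0.25) and -0.86 in iWAT (standard error 0.17), a difference of -3.10 (standard error 0.30). Control BAT was 12-fold above Control iWAT in mean CPM, whereas the Ai-α4KO groups of the depots overlapped. The ratio of Impdh1 to the summed adipocyte markers, in CPM per 1000 CPM of markers, was between 10.8 and 22.2 in Control BAT and between 1.15 and 2.23 in Ai-α4KO BAT. Summed markers of brown adipocytes ran from 8300 to 12700 CPM in Control BAT and from 1550 to 3590 in Ai-α4KO BAT, and those of endothelial cells had medians of 761 and 274 CPM. The part of these cell types in the result was not tested.

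Plac8 was higher in Ai-α4KO mice in both depots, and more so in BAT, where Control levels were low. Control iWAT libraries read 55.2, 38.4, 38.5, 39.2 and 51.2 CPM and Ai-α4KO iWAT libraries 250, 158, 284, 183 and 199 CPM. Control BAT libraries read 4.37, 3.83, 2.49, 5.11 and 3.94 CPM and Ai-α4KO BAT libraries 145, 118, 140, 110 and 94 CPM. No library of one genotype overlapped the other in either depot.

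The log2 fold change of Plac8 was 2.26 in iWAT (standard error 0.19) and 4.90 in BAT (standard error 0.20), a difference of 2.67 (standard error 0.27). In Ai-α4KO mice the level in BAT was still below that in iWAT, at 121 ± 21.1 against 215 ± 51.3 CPM (SD, n = 5 each). The 8 monocyte and macrophage markers moved with Plac8. All 8 were called higher in iWAT, as were 11.3% of all genes, and all 8 in BAT, as were 18.2%. For the difference between depots, 5 of the 8 passed, beside 4.86% of all genes. The summed medians of the markers were 1830 CPM for Control iWAT, 8760 for Ai-α4KO iWAT, 273 for Control BAT and 5280 for Ai-α4KO BAT. Per 1000 CPM of these markers, Plac8 ranged over 19 to 32.9 for Control iWAT, 15.8 to 32.6 for Ai-α4KO iWAT, 9.45 to 17.2 for Control BAT and 15.3 to 27.6 for Ai-α4KO BAT. Whether these cells account for Plac8 was not tested.

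**Figure D1:**
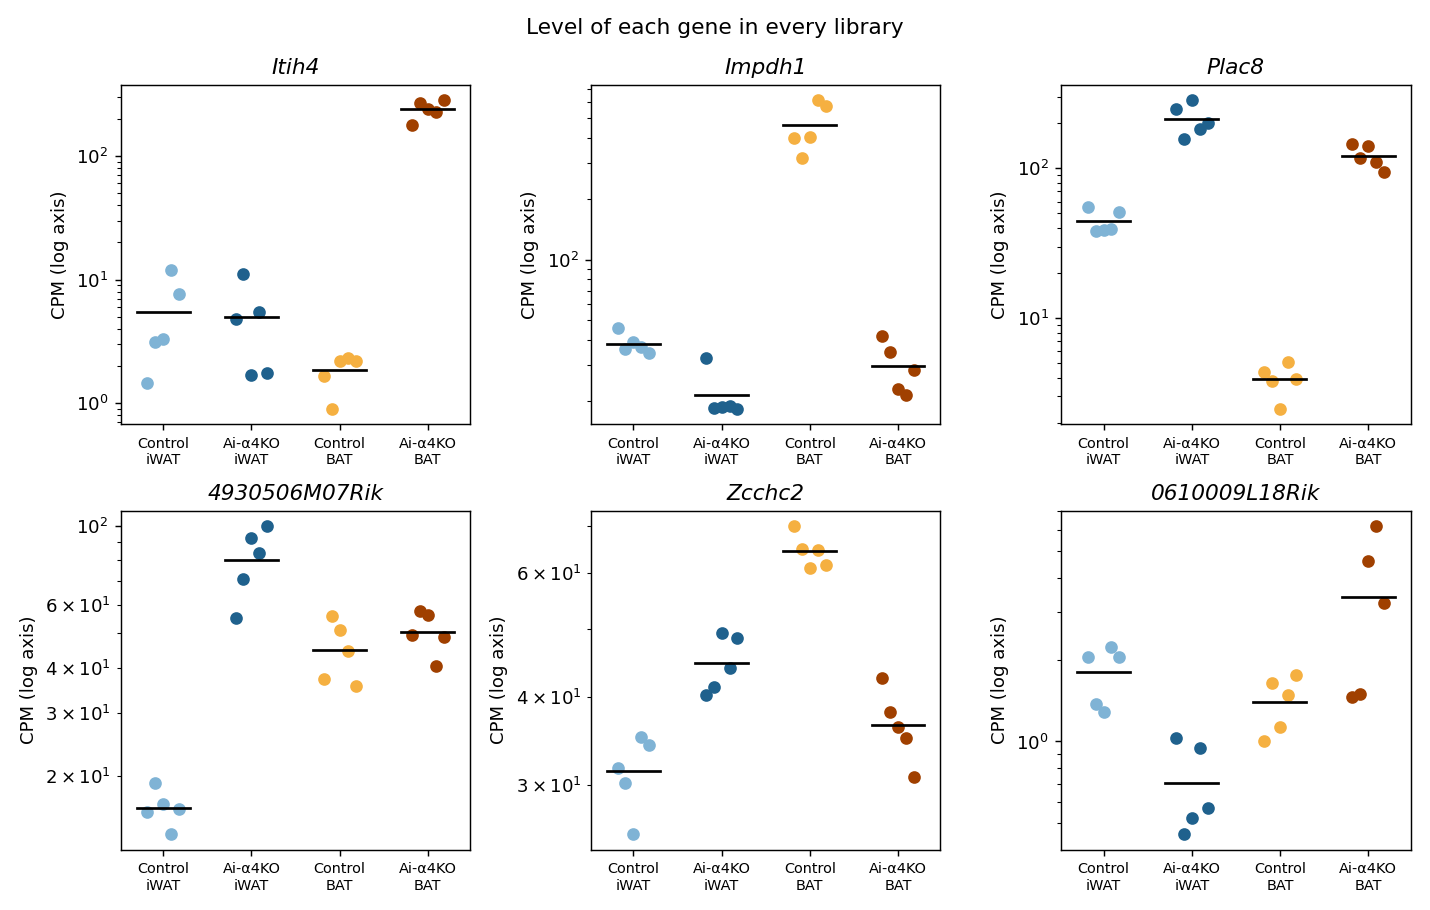
CPM of each of the 6 genes in the 20 libraries, on log axes, with 1 point per library and a black line at the group mean. Itih4 stands at 178 to 283 CPM in Ai-α4KO BAT and at 12 CPM or below elsewhere, and 0610009L18Rik in Ai-α4KO BAT splits into 2 libraries near 1.5 CPM and 3 at 3.23 CPM or above.

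4930506M07Rik showed the reverse order, with the larger change in white fat. Control iWAT libraries read 15.8, 19.1, 16.7, 13.7 and 16.1 CPM and Ai-α4KO iWAT libraries 55.2, 70.9, 92.2, 83.9 and 99.7 CPM. Control BAT libraries read 37.3, 56, 51.1, 44.6 and 35.6 CPM and Ai-α4KO BAT libraries 49.4, 57.9, 56.2, 40.4 and 48.7 CPM. The groups were apart in iWAT and overlapped in BAT.

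The log2 fold change of 4930506M07Rik was 2.30 in iWAT (standard error 0.16) and 0.14 in BAT (standard error 0.15), a difference of -2.13 (standard error 0.22). Control BAT lay 2.76-fold above Control iWAT in mean CPM. Per 1000 CPM of the monocyte and macrophage markers, which were higher in Ai-α4KO libraries of both depots, 4930506M07Rik ranged over 8.32 to 11.5 in Control iWAT and 7.09 to 11.4 in Ai-α4KO iWAT, so the groups overlapped. In BAT the same ratio ranged over 82.4 to 214 in Control and 7.94 to 10.6 in Ai-α4KO. The part of these cells in the result was not tested.

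Zcchc2 had effects of opposite sign in the 2 depots, and the difference between them was the smallest of the 6. Control iWAT libraries read 31.7, 30.2, 25.5, 35.1 and 34.2 CPM and Ai-α4KO iWAT libraries 40.2, 41.3, 49.2, 43.9 and 48.4 CPM, all above Control. Control BAT libraries read 69.9, 64.8, 60.9, 64.6 and 61.5 CPM and Ai-α4KO BAT libraries 42.5, 38.1, 36.2, 35 and 30.8 CPM, all below Control. The log2 fold changes were 0.50 in iWAT (standard error 0.11) and -0.85 in BAT (standard error 0.10), a difference of -1.32 (standard error 0.14). Per 1000 CPM of the adipocyte markers, Zcchc2 ranged over 1.98 to 2.44 in Control BAT and 1.74 to 2.44 in Ai-α4KO BAT, which overlapped, and over 0.673 to 0.994 in Control iWAT and 1.94 to 3.15 in Ai-α4KO iWAT. The part of the adipocyte markers in the result was not tested.

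0610009L18Rik also had effects of opposite sign, at low levels of 0.456 to 6.18 CPM. Control iWAT libraries read 2.05, 1.37, 1.28, 2.23 and 2.05 CPM and Ai-α4KO iWAT libraries 1.03, 0.456, 0.525, 0.949 and 0.571 CPM, all below Control. Control BAT libraries read 1, 1.64, 1.13, 1.48 and 1.75 CPM and Ai-α4KO BAT libraries 1.46, 1.5, 4.61, 6.18 and 3.23 CPM. In BAT the first 2 Ai-α4KO libraries lay within the Control range and the other 3 above it.

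The log2 fold change of 0610009L18Rik was -1.35 in iWAT (standard error 0.31) and 1.23 in BAT (standard error 0.41), a difference of 2.61 (standard error 0.52). The 3 high libraries, 3, 4 and 5, had the highest skeletal muscle marker sums of the series, 23200, 41900 and 24200 CPM, against 12800 and 14000 in libraries 1 and 2. Within Ai-α4KO BAT the same 3 libraries also had the highest marker sums of brown adipocytes (2020, 2810 and 3590 CPM, against 1650 and 1550), of hepatocytes (11.2, 3.6 and 11.8 CPM, against 1.71 and 0.909) and of Schwann cells and nerve (78.7, 105 and 127 CPM, against 76.6 and 50.4). With the log2 muscle sum as a covariate, the effect in BAT was 0.13 (standard error 0.55) and the difference between depots, in the fit of all 20 libraries, was 2.30 (standard error 0.55). Muscle sums of the 2 genotypes did not overlap in BAT, so in that fit muscle RNA and genotype cannot be told apart, and the part of RNA from muscle or these other cells in the level of 0610009L18Rik was not tested.

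**Figure D2:**
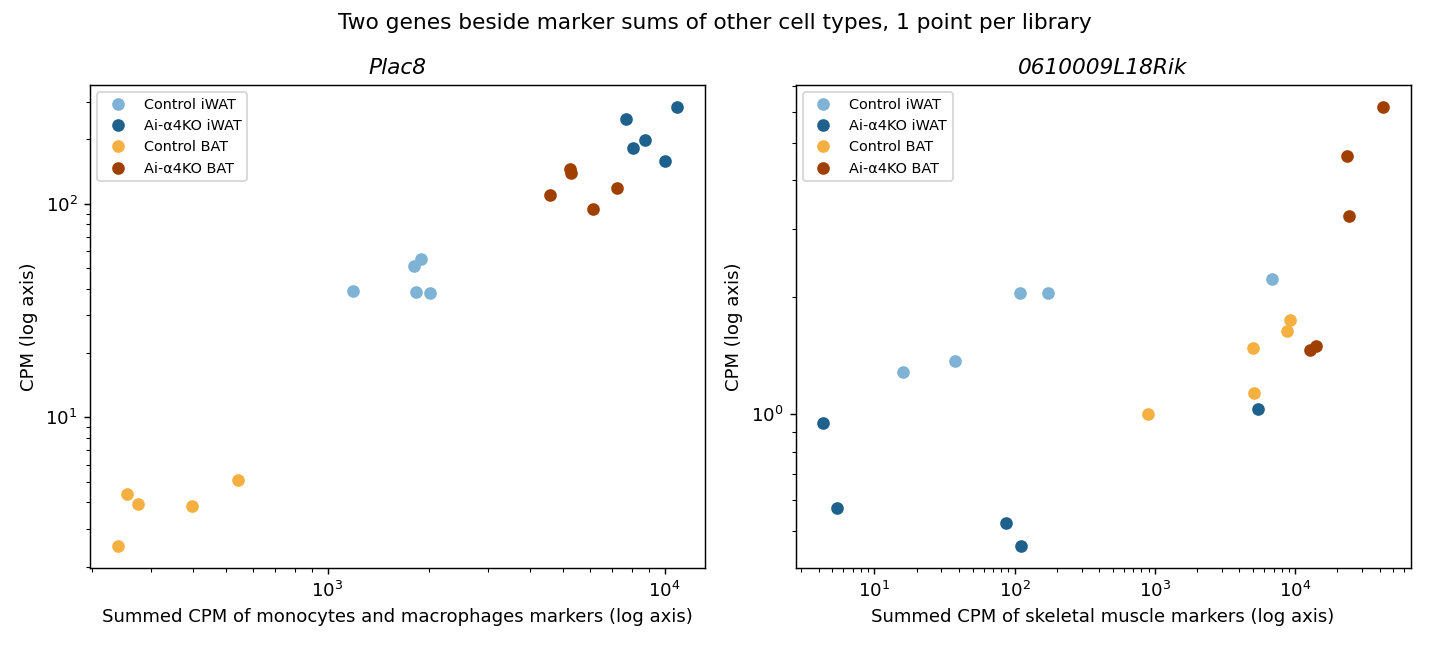
Left, CPM of Plac8 against the summed CPM of 8 monocyte and macrophage markers, and right, CPM of 0610009L18Rik against the summed CPM of 7 skeletal muscle markers, with 1 point per library, log axes and colours for the 4 groups. Plac8 is lowest in Control BAT, where the marker sum has a median of 273 CPM, and 0610009L18Rik is highest in the Ai-α4KO BAT library with a muscle sum of 41900 CPM.

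Over all genes, the knockout effect differed between depots for 740 of 15230 tested (adjusted p below 0.01 in edgeR), which is 4.86%. The effect was higher in BAT for 3.26% and lower for 1.60%. Higher values thus made up 67% of the calls, against 84% with library totals and 81% with upper-quartile factors. Effects of opposite sign occurred in 20.5% of 13975 genes tested in both depots and in 3 of the 6 genes here, Itih4 included at -0.16 in iWAT. That value ran from -0.68 to 0.35 when 1 iWAT library was left out, so the sign of Itih4 in iWAT is not settled. In iWAT, Ai-α4KO libraries lay above every Control library for 20.7% of genes and for 3 of the 6, and below for 18.3% of genes and for 2 of the 6. In BAT they lay above for 24.7% and for 2 of the 6, and below for 23.0% and for 2 of the 6. Since these values chose the genes, nothing is read from the counts.

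**Figure D3:**
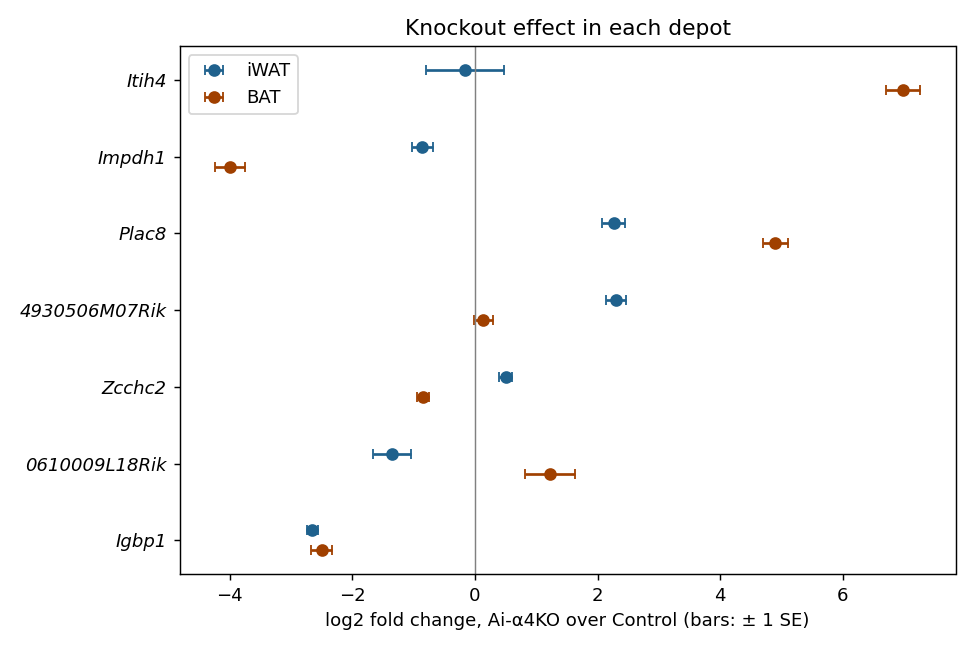
Log2 fold change of Ai-α4KO over Control in iWAT (blue) and BAT (brown) for the 6 genes and Igbp1, with bars of 1 standard error. Zcchc2 and 0610009L18Rik lie on opposite sides of 0 in the 2 depots, and Igbp1 is at -2.65 and -2.5.

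Averages over the depots and over the genotypes are given without a test for the 6 genes, because they are built from the same libraries as the effects that chose them. The average knockout effect was 3.60 on the log2 scale for Plac8 (standard error 0.14), 1.24 for 4930506M07Rik (standard error 0.11) and -2.40 for Impdh1 (standard error 0.16). For Itih4 it was 3.43 (standard error 0.38), from effects of 6.98 in BAT and -0.16 in iWAT. Zcchc2 and 0610009L18Rik were at -0.15 and -0.04, and their sign turned with library totals, at 0.02 and 0.11. Among all genes, 27.0% were called for this average (adjusted p below 0.01, 2-fold or more), 15.2% higher and 11.8% lower.

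The average depot difference, BAT minus iWAT, was 2.04 for Impdh1 (standard error 0.15), 2.02 for Itih4 (standard error 0.37) and -2.16 for Plac8 (standard error 0.14). With the muscle covariate the value for Itih4 was 1.19. It was 0.40 for 4930506M07Rik, 0.38 for Zcchc2 and 0.95 for 0610009L18Rik. Among all genes, 22.3% were called, 9.13% higher in BAT and 13.2% lower.

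Compared per transcript length, as FPKM, the order of the 6 genes changed between groups. In Control BAT, Impdh1 was highest at 132 ± 40 FPKM, followed by 4930506M07Rik at 8.5 ± 1.4 and Zcchc2 at 7.5 ± 0.522, which overlapped. In Ai-α4KO BAT the highest were Plac8 at 159 ± 31.1 and Itih4 at 69.1 ± 12.8 FPKM. Plac8 was also highest in both iWAT groups, at 57.7 ± 12.4 in Control and 302 ± 71.6 FPKM in Ai-α4KO (SD, n = 5 each). 0610009L18Rik stayed between 1.12 ± 0.43 and 4.88 ± 2.69 FPKM.

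The 2 genes on each side of each of the 6 gave 24 neighbours, of which 16 could be tested for the difference between depots and 4 passed, beside 4.86% of all genes. Next to Itih4, Mustn1, a gene of the musculoskeletal system, rose in BAT by 2.03 on the log2 scale and was at 0.01 in iWAT, a difference of 2.05 (adjusted p = 0.00377). Skeletal muscle markers were also higher in those libraries, at 12800 to 41900 CPM in Ai-α4KO BAT against 892 to 9190 in Control BAT. With the muscle covariate the effect of Mustn1 in BAT was 1.31 (adjusted p = 0.00393) and the difference 1.84 (adjusted p = 0.00411). The muscle sums did not overlap in BAT, so that fit cannot tell muscle RNA from genotype there. The Itih4 relatives on its other side were scarce. Itih3 had a difference of 3.20 that did not pass (adjusted p = 0.0712), and Itih1 was too low to test, at 0.717 ± 0.931 CPM in Control iWAT and lower in the other groups.

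Near Plac8, Hpse, which encodes the heparan sulfate cleaving enzyme heparanase, rose in both depots, by 1.29 in iWAT and 3.93 in BAT, a difference of 2.66 (adjusted p = 0.000273). Its average depot difference was -2.09 (adjusted p = 2.74e-08). Around Zcchc2, Tnfrsf11a, the receptor RANK, rose in both depots with a difference of 1.43 (adjusted p = 0.00648), and Phlpp1, a phosphatase that acts on Akt, had a difference of -0.81 (adjusted p = 0.00463) and fell in BAT by 1.23. The call for the difference was lost in 4 of the 20 fits without 1 library for Tnfrsf11a (Control iWAT 2 and Control BAT 1, 2 or 3), and in 8 of 20 for Phlpp1 (Control iWAT 1, Ai-α4KO iWAT 3, 4 or 5 and Ai-α4KO BAT 1, 2, 3 or 5). Over all alternatives the difference ran from 0.36 to 1.65 for Tnfrsf11a and from -0.85 to -0.53 for Phlpp1. With the muscle covariate the call for Phlpp1 was also lost, at -0.71 (adjusted p = 0.0136).

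None of the tested neighbours of Impdh1 and 0610009L18Rik passed for the difference. The 193 bases printed above separate 0610009L18Rik from Actg1 in the deposited coordinates. The RefSeq window of Actg1 overlaps that of 0610009L18Rik by 282 bases. Actg1 rose in both depots, by 1.22 in iWAT and 1.11 in BAT, with a difference of -0.08 (adjusted p = 0.797). It read 768 ± 123 and 1800 ± 137 CPM in Control and Ai-α4KO iWAT, where 0610009L18Rik was lower in Ai-α4KO libraries. The 4 neighbours of 4930506M07Rik were at or near 0 in every group and were not tested.

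**Figure D4:**
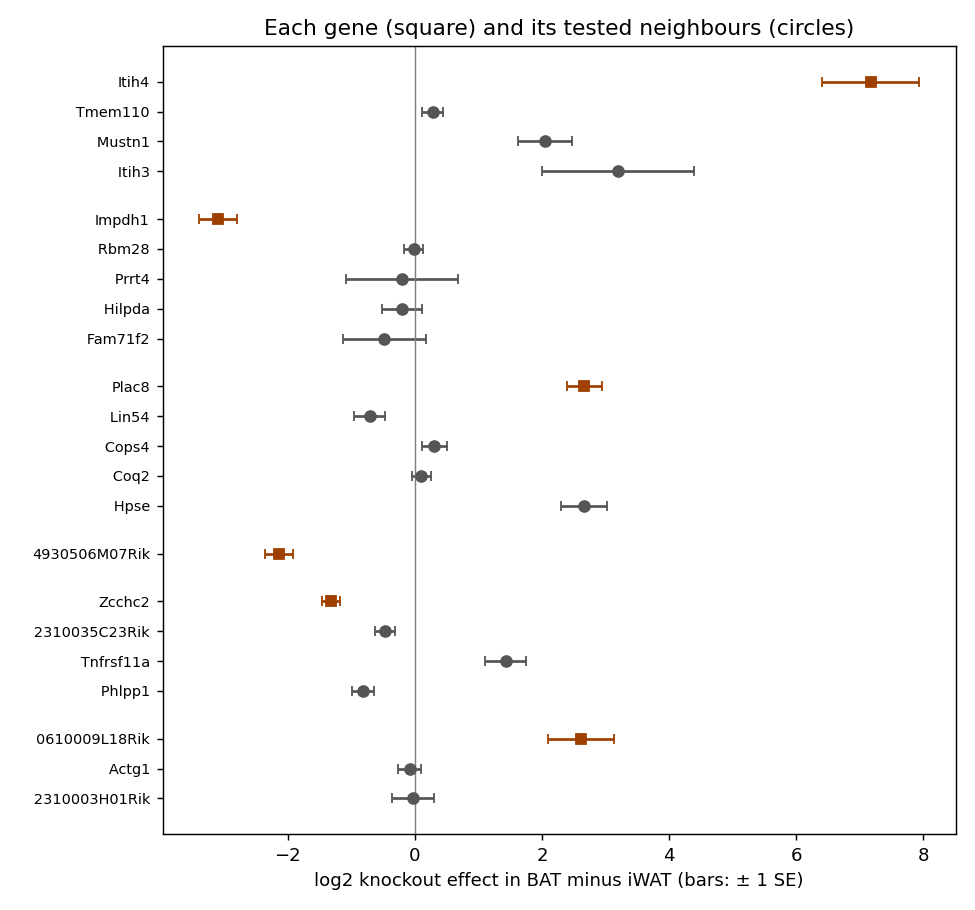
Log2 knockout effect in BAT minus that in iWAT for each of the 6 genes (squares) and its tested neighbours (circles), with bars of 1 standard error. Hpse lies at 2.66 beside Plac8 at 2.67, and Actg1 lies at -0.08 beside 0610009L18Rik at 2.61.

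Relatives of Itih4, though not Itih4 itself, are known to be linked to hyaluronan, a matrix sugar polymer. Of 14 tested relatives and hyaluronan genes, 5 rose and 0 fell in iWAT, and of 12 tested in BAT, 7 rose and 1 fell (medians 0.70 and 2.5, against 0.01 and -0.03 over all genes). Calls within a depot were made for 22.0% of all genes in iWAT (11.3% higher, 10.7% lower) and 31.5% in BAT (18.2% higher, 13.3% lower). Cd44, the hyaluronan receptor, rose by 3.10 in iWAT and 4.34 in BAT, and it alone of the list passed for the difference, at 1.27 (adjusted p = 0.002). Ptx3, a pattern recognition protein of the hyaluronan matrix, rose by 4.45 and 5.93. Hyal1, a hyaluronidase, fell in BAT by 1.90. Monocyte and macrophage marker sums also rose, from medians of 1830 to 8760 CPM in iWAT and from 273 to 5280 in BAT. Neutrophil marker sums rose from medians of 80.5 to 304 CPM in iWAT and from 29.7 to 375 in BAT. The part of these cells in the list was not tested.

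Among acute phase proteins, the plasma proteins raised in inflammation, 6 of 12 tested rose in iWAT and 8 of 9 in BAT, and 0 fell. Serpina3n, a protease inhibitor, rose by 1.30 in iWAT and 4.38 in BAT, a difference of 3.12 (adjusted p = 0.000925), and its call in iWAT was lost without Control libraries 1 and 4. Saa3, a serum amyloid of fat and macrophages, rose by 6.96 and 6.60, a difference of -0.34 (adjusted p = 0.84). Saa2 read 0 in every Control BAT library and 5.05 ± 2.49 CPM in Ai-α4KO BAT. The macrophage and neutrophil marker sums given above rose in the same groups, and their part in this list was not tested.

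The list of purine and guanine nucleotide synthesis, the pathway of Impdh1, also holds enzymes of salvage and breakdown. Of its 21 genes, 2 rose and 0 fell in iWAT, and 4 rose and 1 fell in BAT. Gda, a guanine deaminase, rose by 1.52 and 2.76, a difference of 1.27 (adjusted p = 0.00853). Prps2, which makes the ribose phosphate donor, had a difference of 0.97 (adjusted p = 0.00817), and Gmpr2, a guanosine monophosphate reductase, of -0.75 (adjusted p = 0.00594). Leaving out single libraries ended the call for Gda and Prps2 in 6 of 20 fits each and for Gmpr2 in 14, and the muscle covariate ended it for Prps2 (adjusted p = 0.017) and Gmpr2 (adjusted p = 0.015). The sister enzyme Impdh2 read 38.1 ± 4.74 CPM in Control BAT and 53.9 ± 6.31 in Ai-α4KO BAT (SD, n = 5 each). In iWAT, Impdh2 read 52.2 ± 8.28 CPM in Control and 61.4 ± 4.09 in Ai-α4KO (SD, n = 5 each).

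No CCHC zinc finger gene was called in either depot, of 13 and 12 tested, while Zcchc8, a nuclear RNA exosome cofactor, had a difference of -0.51 (adjusted p = 0.00943) that was lost in 19 of the 20 fits that leave out 1 library. Of 7 shootin-1 partners tested, Kif20b, a kinesin, and Pak1, a kinase, rose in both depots, Kif20b by 2.35 and 1.78 and Pak1 by 2.29 and 2.74. Ntn1, the guidance cue netrin-1, had a difference of 1.35 (adjusted p = 0.00878), lost in 10 of those 20 fits. With the muscle covariate the difference of Zcchc8 had an adjusted p of 0.0207 and that of Ntn1 of 0.0137, so neither call was kept. L1cam had log2 values of 0.70 in iWAT and -0.01 in BAT, neither called.

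Because Plac8 is tied to brown fat differentiation, 13 genes of that program were examined. In iWAT 10 fell and 1 rose, and in BAT 7 fell and 1 rose. Ppargc1a, the mitochondrial coactivator, fell in iWAT by 2 and was at -0.15 in BAT, a difference of 1.89 (adjusted p = 0.00266). Cox7a1, a respiratory chain subunit, had a difference of 2.44 (adjusted p = 0.00509), lost without Control BAT library 3 or 5. Ucp1, the uncoupling protein, fell by 6.57 in iWAT and by 2.39 in BAT, a difference of 4.21 (adjusted p = 0.00882) lost in 15 of the 20 fits. Cidea, a lipid droplet protein, fell by 4.95 and by 2.65. Skeletal muscle, which also expresses Ppargc1a and Cox7a1, had the marker sums given above, higher in every Ai-α4KO BAT library than in any Control BAT library. With the muscle covariate the difference was 2.03 for Ppargc1a (adjusted p = 0.00234), 2.41 for Cox7a1 (adjusted p = 0.00958) and 4.47 for Ucp1 (adjusted p = 0.00721). Since the muscle sums did not overlap in BAT, that fit cannot tell muscle RNA from genotype there. The part of muscle RNA in these differences was not tested.

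Over the 20 libraries, the genes most like each of the 6 in log2 CPM were found by Pearson's r among 15224 genes, as a description, since libraries share group and depot. Itih4 was most like Fgl1, another liver-secreted protein (r = 0.954), which read 18 ± 3.57 CPM in Ai-α4KO BAT and between 1.29 and 3.05 CPM on average elsewhere, and Skint7 (r = 0.947), a gene near the limit of detection, at 0.454 ± 0.128 CPM in Ai-α4KO BAT (SD, n = 5) and at or near 0 elsewhere. Hmg20b was among the genes most like Impdh1 (0.968). Plac8 was most like Emp3 (0.988) and Tnfrsf1b, a receptor of tumor necrosis factor (0.987).

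4930506M07Rik was most like Fgd4, a Cdc42 exchange factor (0.949), and Pla2g7, a secreted phospholipase (0.945). Zcchc2 was most like Qrich1 (0.882) and Rap1gds1 (0.876), and 0610009L18Rik was most like Cuedc1 (0.928) and the phosphate transporter Slc20a2 (0.927). Among the 6 genes themselves, Impdh1 and Plac8 ran opposite to each other (r = -0.95), and 0610009L18Rik and Impdh1 had an r of 0.01 (n = 20 libraries).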

How the data were processed

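RNA-seq libraries (stranded mRNA, paired reads) of 20 samples were used. The authors deposited, per gene and library, an expected count, not normalized, and an FPKM value. The submitters' processing notes name STAR 2.5.3a, bcl2fastq 2 and mm10. The counting tool is not given in the sources used here. Counts were rounded and tested in R 4.3.3 with edgeR 4.0.16 (filterByExpr, TMM, quasi-likelihood, Benjamini-Hochberg) within each depot, and in 1 fit of 4 groups for the difference between depots and the 2 averages. Calls needed an adjusted p below 0.01 and a fold of at least 2, for the difference only the p. Members and lists were chosen with earlier results of these data known. Genes named are the 6, Igbp1, their neighbours, up to 4 per list (smallest p of the difference, largest called change) and the 2 most alike to each of the 6 (for Impdh1, only 1 is reported here), and the defining marker of a cell type (Alb). Impdh2 was added after its values were seen. Log2 CPM used a prior count of 2. Methods were tested on simulated data. Alternatives were DESeq2 1.42.0, limma 3.58.1 on log2 FPKM, other scalings, filters and thresholds, a replicate block and leaving out libraries. Same-numbered libraries did not all deviate together (correlations from -0.45 to 0.24, over 0.1 in 1 or 2 of 5 pairs). For the 6 genes the 2 averages had been planned as tests, and are given without one.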

Additional observations from a re-analysis of the deposited data

Results flagged for a closer look

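Impdh1 read 32.5 CPM in Ai-α4KO iWAT library 1, far from the other 4 of its group, which lay between 18.3 and 18.8 CPM. Its gap was 0.965 of the group's range, against a limit of 0.71, and it was the only one of 28 groups of 5 libraries to pass, while chance gives about 1 in 20. That library also had the highest marker sum of its group for skeletal muscle, at 5440 CPM. The same held for mesothelial cells (23.3 CPM), plasmacytoid dendritic cells (43.1 CPM), and fibroblasts and adipocyte progenitors (3330 CPM). Control iWAT library 4, with a muscle sum of 6840 CPM, read 36.9 CPM of Impdh1. The part of these cells was not tested.

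The knockout effect in BAT minus that in iWAT passed the test for 4.86% of all genes, and among the list genes and neighbours named here for those that follow, given on the log2 scale. Genes named for their likeness to the 6 are left out, since that likeness bears on the same difference. Cd44, Serpina3n, Gmpr2, Prps2, Zcchc8, Ntn1, Ppargc1a and Cox7a1 were named because they had the smallest p of their lists for this same difference, so how many passed says nothing about the lists. Among relatives and pathway genes these were Cd44 at 1.27, Serpina3n at 3.12, Gmpr2 at -0.75, Prps2 at 0.97, Gda at 1.27, Zcchc8 at -0.51 and Ntn1 at 1.35. Among brown fat genes they were Ppargc1a at 1.89, Cox7a1 at 2.44 and Ucp1 at 4.21. Among neighbours they were Mustn1 at 2.05, Hpse at 2.66, Tnfrsf11a at 1.43 and Phlpp1 at -0.81. Zcchc2, at -1.32, was noted because every Ai-α4KO library lay above Control in iWAT and below it in BAT, and its difference was not tested since it chose the gene.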

How the results depend on the processing

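Counts of genes past a threshold and some values of the 6 genes depended on the processing, and no cause was tested. For the difference between depots, 496 genes higher became 1257 with DESeq2, 1432 at an adjusted p below 0.05, 321 with the muscle covariate and 309 to 853 without 1 library. The 244 lower became 391 with DESeq2, 115 with library totals, 147 with upper-quartile factors, 130 without a filter, 127 at 10 counts in every library, 136 with limma on log2(FPKM + 0.1), 865 at an adjusted p below 0.05, 68 without Control iWAT libraries 1 and 4, 129 with the muscle covariate and 93 to 264 without 1 library. With the replicate block the 244 became 150, and the labels do not say that the numbers pair mice. The average knockout effect could not be estimated with that block.

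Genes lower in iWAT numbered 1559 in the main fit and 779 with limma on log2(FPKM + 1). In BAT, genes higher numbered 2614 in the main fit and 1677 with the muscle covariate. The 1910 genes lower there became 1265 with library totals, 807 with limma on log2(FPKM + 1) and 1205 on log2(FPKM + 0.1). For the average knockout effect, 2315 genes higher became 1356 at 10 counts in every library. The 1790 genes lower became 743 and 1173 with the 2 limma pseudocounts. For the average depot difference, 1391 genes higher became 731 with limma on log2(FPKM + 1) and 793 with the muscle covariate. The 2012 genes lower became 1101 at 10 counts in every library and 854 with limma on log2(FPKM + 1). Library totals moved the median of all genes by 0.26 in BAT, 0.12 in iWAT and 0.17 for the average knockout effect. They raised the share of calls that were higher from 57.8% to 72.0% in BAT and from 56.4% to 67.0% for that average. In iWAT the share was 51.5%, against 59.9% with library totals, 48.4% with DESeq2 and 44.7% with upper-quartile factors. For the average depot difference it was 40.9%, and 31.8% with library totals.

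Limma on log2(FPKM + 1) gave differences of 5.59 for Itih4, -1.75 for 4930506M07Rik, -1.04 for Zcchc2 and 1.75 for 0610009L18Rik, and that pseudocount lowers changes of low genes. It also gave 5.58 for Itih4, -3.59 for Impdh1 and -0.51 for Zcchc2 in BAT, and -0.77 for 0610009L18Rik in iWAT. In BAT, library totals and limma on log2(FPKM + 0.1) each gave 0.41 for 4930506M07Rik and -0.58 for Zcchc2, and the muscle covariate gave -0.70 for Zcchc2. Without 1 library the difference of Zcchc2 ran from -1.37 to -1.17. Sign turned for the average knockout effect of Zcchc2 at 0.02, 0.01 and 0.02 and of 0610009L18Rik at 0.11, 0.10 and 0.04 (library totals and the 2 limma fits), and for the latter without 1 library (-0.22 to 0.01).

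In the lists, acute phase genes with a higher difference numbered 5 with DESeq2 and 2 with either other scaling, hyaluronan genes 2 with DESeq2 and brown fat genes 6 with DESeq2. The lower calls of the purine and CCHC lists became 0 with library totals and upper-quartile factors. Upper-quartile factors gave 1 lower call in iWAT in the hyaluronan list, 1 in the shootin-1 list (also DESeq2) and 0 higher in the brown fat list (also DESeq2). Counts of 20 to 192 per library limit the precision of 0610009L18Rik.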
